A study of Mus musculus with 8 samples.

Results

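The olfactory bulb of diesel-exposed mice was compared between animals reared with environmental enrichment (EE-DE) and animals reared in standard cages (C-DE). These groups were measured on 4 of the 8 arrays of the study, 2 per group, and all noncontrol probes were considered. All mice were C57BL/6J males, taken at 56 days of age after inhaling diesel exhaust at 90 µg/m3 for 8 hours per day on 28 days, so exposure was common to both groups and rearing differed. From gestation onwards, EE-DE mice had more space, a wheel for exercise, a shelter and movable objects, whereas C-DE mice lived in common laboratory cages. The other 4 arrays held the corresponding clean-air groups, EE-C and C-C. Per the methods, RNA of the mice of a group was pooled with 1 bulb per cage, and the pool was split over 2 arrays. Each group was therefore 1 sample, the 2 arrays of a pool were technical duplicates, and no test between the groups was possible. A probe was called at a 1.5-fold difference between the pool means (0.585 on the log2 scale), and each difference is given with its range over the 4 pairings of an EE-DE with a C-DE array.

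The olfactory bulb receives the axons of sensory neurons whose cell bodies lie in the olfactory mucosa of the nose. In the mucosa, supporting cells and Bowman's glands surround these neurons, and they are known for a high content of cytochrome P450 and conjugating enzymes that metabolise inhaled compounds and odorants. Bulb tissue proper consists of mitral and tufted cells, granule and periglomerular interneurons, and glia. In a bulk sample, fewer cells of a type and less RNA per cell cannot be told apart.

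Of 59305 noncontrol spots, 33231 passed the detection and outlier flags of every compared array, which gave 30739 probes under 21724 gene names. Values are log2 processed signals relative to the 75th percentile of the array, and they are compared only within a probe. The share of spots well above background was 56.7% on EE-DE array 1 and 68.0 to 70.6% on the other 7, and the median background signal was 29 on that array against 21 to 24. Duplicate arrays had an SD of 0.12 (log2) in C-DE and 0.15 in EE-DE, and 289 and 587 probes lay at least 1.5-fold apart within the pool. All 8 arrays were on 1 slide. The first position number in the array barcode was 1 for standard and 2 for enriched rearing, so that rearing and slide position cannot be told apart. The 8 probes of Gapdh, a reference gene for quantitative RT-PCR, differed by −0.079 to 0.042 between the pools.

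Between EE-DE and C-DE, 265 of 30739 probes (0.862%) were called, 206 higher (0.67%) and 59 lower (0.192%) in EE-DE. In all 4 pairings, 43 probes were higher (0.14%) and 12 were lower (0.039%). The median difference over all probes was −0.0003. The probes higher in all pairings had 36 different gene symbols, of which 16 stood on the lists of olfactory mucosa and sensory neuron genes. Those lists held 18 and 19 of the 21724 gene names measured. They were drawn up with earlier results of these data known, so the count of 16 is a description. By gene, represented by the brightest probe, 152 of 21724 were higher (0.7%) and 39 lower (0.18%), or 38 (0.175%) and 7 (0.0322%) in all pairings. None of the 12 probes lower in all pairings had a gene symbol, and 7 of them were Ensembl transcripts without symbol, shown further on. Most calls concerned dim probes, as the plot of change against level shows: 156 of the 206 higher probes were among the 7685 with the lowest signal. Of the 206, 98 were at least 1.5-fold brighter on EE-DE array 1 than on its duplicate. Without EE-DE array 2 the counts were 318 higher and 209 lower, and without C-DE array 1 the lower probes numbered 141.

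**Figure D1:**
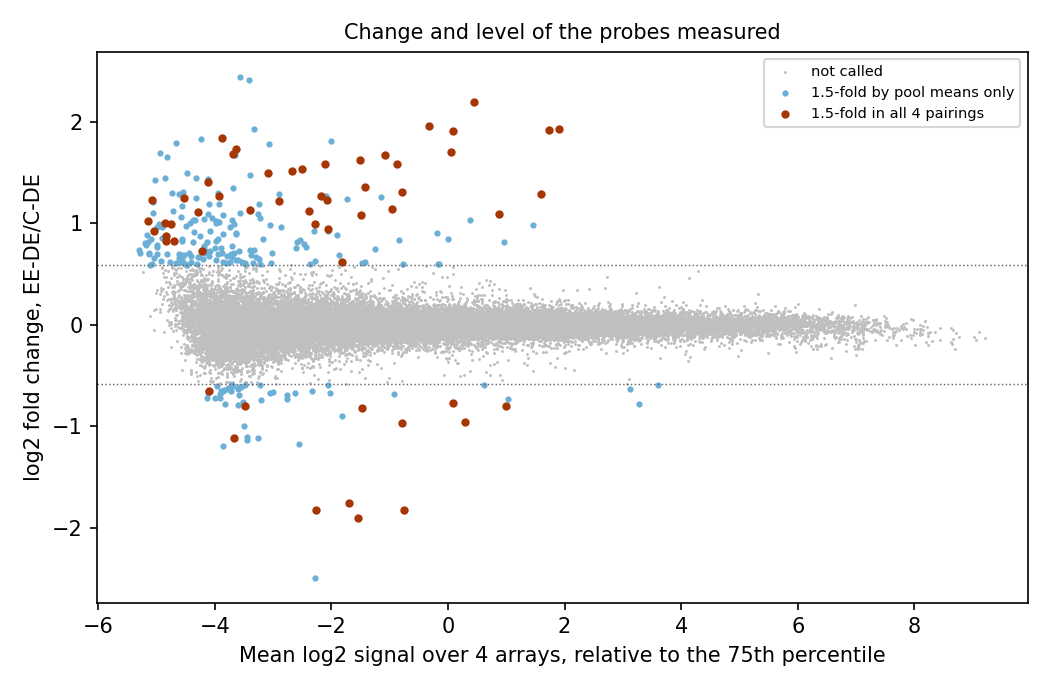
Each point is 1 of 30739 probes; the x axis gives its mean log2 signal on the compared arrays after scaling, and the y axis its log2 fold change in EE-DE/C-DE, with dotted lines at 1.5-fold. Blue points passed 1.5-fold by pool means only, and the 55 dark points did so in all 4 pairings, 43 of them above 0 and 12 below.

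Among the genes higher in all pairings were several enzymes of the olfactory mucosa. Cyp2g1, a cytochrome P450 of the olfactory mucosa (probe at chr7:27606111-27606170, mm9), had log2 signals of −0.86 and −0.44 on the C-DE arrays and of 1.14 and 1.94 on the EE-DE arrays. It was 4.56-fold higher in EE-DE (log2 2.19, 1.58 to 2.79 over the pairings), and both EE-DE arrays lay above both C-DE arrays. Cyp2f2, a further P450 enzyme (chr7:27918570-27918629), read −0.93 and −0.65 in C-DE and 0.55 and 1.26 in EE-DE, which is 3.24-fold higher (log2 1.70, 1.20 to 2.19).

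Cyp2a4, a P450 of the same family, showed a difference of similar size on both of its probes. The brighter probe (chr7:27099880-27099939) read 0.62 and 1.25 in C-DE and 2.43 and 3.31 in EE-DE, a log2 difference of 1.93 (1.18 to 2.68). The other was higher by 1.91 (1.11 to 2.70). An unnamed probe, which matches the brighter Cyp2a4 probe at 52 bases of its 60, was higher by 1.92 (1.23 to 2.60). Cyp2a genes are near-identical copies, and which of their transcripts these probes bind was not tested.

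Some other enzyme genes were called higher in all pairings as well, while others, such as Gsta3 and Sult1a1, were not called. Ugt2a1, which conjugates odorants with glucuronic acid, read −1.89 and −1.46 in C-DE and −0.61 and 0.44 in EE-DE (log2 1.59, 0.85 to 2.32). Cbr2, a carbonyl reductase, was higher by 1.28 and 1.35 on its 2 probes, and Adh1, an alcohol dehydrogenase, by 0.62 (0.59 to 0.65). Adh1 was named after its values were seen. Pon1, an esterase, read −4.65 and −4.40 in C-DE against −3.46 and −2.24 in EE-DE (log2 1.68, 0.94 to 2.42). EE-DE array 2 was the higher of the EE-DE duplicates for Cyp2g1, Cyp2f2, Cyp2a4, Ugt2a1 and Pon1 alike.

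Krt18, a keratin of simple epithelia, read −2.50 and −2.16 in C-DE and −1.10 and −0.31 in EE-DE (log2 1.62, 1.06 to 2.19). Its partner keratin Krt8 read −4.62 and −4.39 against −3.10 and −2.44 (log2 1.73, 1.29 to 2.18). Both keratins, which pair in the same filaments, thus differed by close values. Muc16, a membrane mucin, was higher by 1.84 (1.07 to 2.61) and Mslnl, a mesothelin-like gene, by 1.59 (1.25 to 1.92). Aqp3, a water and glycerol channel, was higher by 1.53 (0.98 to 2.09), whereas Aqp5, the water channel of secretory glands, differed by 0.33 (0.21 to 0.44).

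Among genes of secreted or lipid-handling proteins, Sec14l3, a lipid-binding protein, had the second largest difference among genes higher in all pairings. Its brighter probe read −1.68 and −0.93 in C-DE and 0.27 and 1.02 in EE-DE (log2 1.95, 1.20 to 2.70), and its dimmer probe differed by 0.74 (0.47 to 1.00). Bpifb4, of a family of secreted lipid-binding proteins, was higher by 1.31 (0.80 to 1.81), while Bpifa6 of that family read −0.63 and −3.31 in C-DE and −3.52 and −2.78 in EE-DE (log2 −1.18, −2.89 to 0.53). Bpifa6 was named after its values were seen. Fetub was higher by 1.08 (0.79 to 1.37). The odorant-binding protein Obp1a differed by −0.021 (−0.12 to 0.077), with EE-DE and C-DE arrays overlapping, and by 1.68 in EE-C/C-C.

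Over the list of supporting cell and gland genes, 18 of 32 were measured, 10 did not pass the filter and 4 were not on the array by that name. The median difference was 1.30 (0.83 to 1.86 over the pairings), against 0.0024 over all genes. Of the 18, 13 were called higher and 11 of these in all 4 pairings, where 0.7% and 0.175% of all genes were. The list includes Cyp2f2, Krt18, Mslnl and Aqp3, which the study chose on these arrays for RT-PCR. It also includes Ugt2a1 and Fetub, which the study reported as changed on these arrays, so its count is not independent evidence. Both EE-DE arrays lay above both C-DE arrays for 17 of the 18, and Obp1a was the exception. Arrays separated in either direction for 41.5% of all genes. Further genes higher in all pairings, named after their values were seen, included Agr2 (1.49), a protein of mucous secretory cells, Gal3st2 (1.51), and Scgb1c1 (1.09), a secretoglobin.

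**Figure D2:**
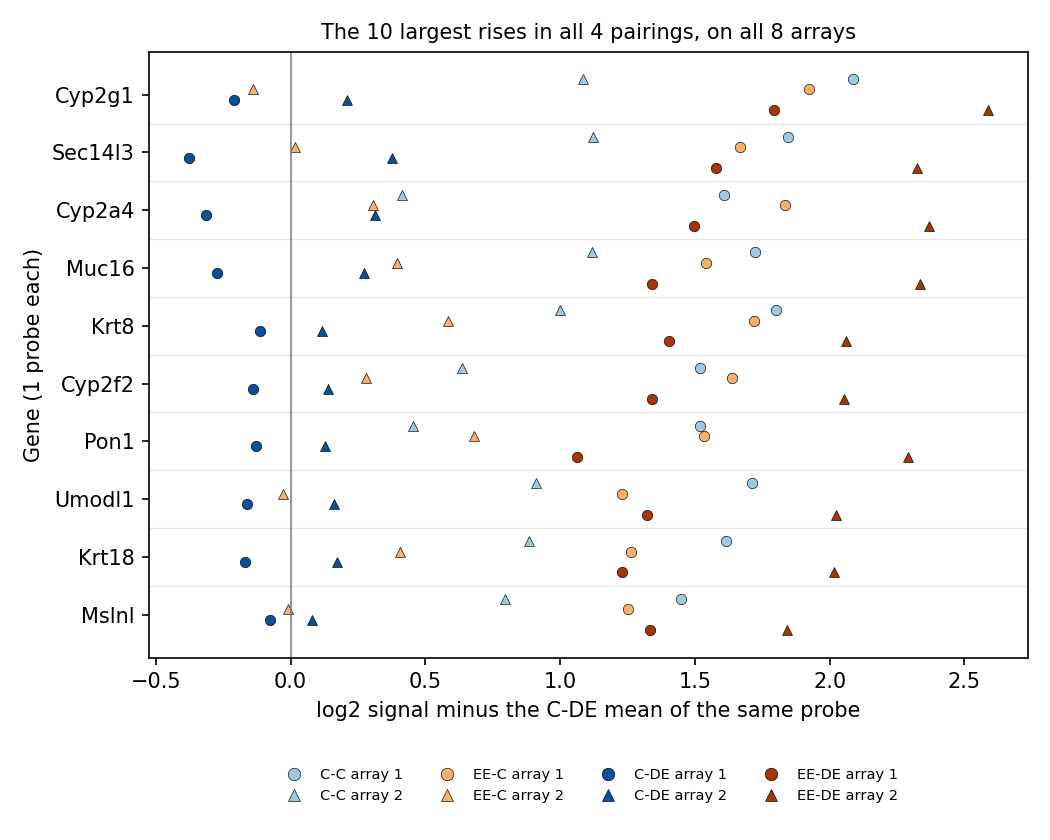
For the 10 largest rises in all 4 pairings, each point is the log2 signal of 1 array minus the C-DE mean of the same probe; circles are array 1 and triangles array 2 of each pool. Both EE-DE arrays lie to the right of both C-DE arrays for every gene shown, and all C-C and EE-C arrays lie between the lowest C-DE and the highest EE-DE array.

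The list of genes of the sensory neurons themselves had a smaller median difference than the supporting cell and gland list. Of 20 listed genes 19 were measured, their median difference was 0.35 (0.19 to 0.46), and 6 were called higher, 5 in all pairings, where 0.7% and 0.175% of all genes were. Umodl1, a sensory neuron gene that the study also chose on these arrays, read −2.08 and −1.75 in C-DE and −0.59 and 0.11 in EE-DE (log2 1.67, 1.16 to 2.19). Without C-DE array 1 the median of the list was 0.21.

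The channel genes of odour transduction differed unequally. Cnga4, a subunit of the cyclic nucleotide-gated channel, read −2.97 and −2.66 in C-DE and −1.80 and −1.30 in EE-DE (log2 1.26, 0.86 to 1.67). The study had reported Cnga4 as changed on these arrays. Ano2, the calcium-activated chloride channel that amplifies the response, was higher by 1.22 (0.85 to 1.59). Cnga2, the principal channel subunit, differed by 0.54 (0.29 to 0.80) and stayed below 1.5-fold. For the subunit Cngb1, the brightest of 3 probes was higher by 0.94 (0.63 to 1.26), while the others differed by 0.15 and −0.048. The adenylyl cyclase Adcy3, which supplies the cyclic nucleotide, differed by −0.021 (−0.093 to 0.052).

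Transcription and axon genes of the neurons followed a similar order. Ebf2 read −2.92 and −2.63 in C-DE and −1.95 and −1.61 in EE-DE (log2 1.00, 0.69 to 1.31). Its relatives Ebf1, Ebf3 and Ebf4 differed by 0.23, 0.41 and 0.24. Kirrel2, an adhesion protein of sensory axons, was higher by 0.80 (0.56 to 1.03), and Omp, the marker protein of mature sensory neurons, differed by 0.20 (0.069 to 0.33). All 4 arrays separated in the direction of EE-DE for 15 of the 19 genes, and for 4725 of all 21724 genes.

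The clean-air arrays placed both pools. The supporting cell and gland list, expressed as the median deviation of its genes from their means over 8 arrays, was −1.05 and −0.52 on the C-DE arrays, 0.31 and 0.77 on the EE-DE arrays, 0.71 and −0.15 on the C-C arrays and 0.63 and −0.55 on the EE-C arrays. C-DE array 1 was the lowest of all and EE-DE array 2 the highest, and the clean-air groups overlapped each other. Duplicates of the same pool differed in the median of this list by 0.84 in C-C and by 1.27 in EE-C, beside the 1.30 between the EE-DE and C-DE pools. Between the duplicates of C-DE the median difference was −0.31 and between those of EE-DE −0.44. What set the duplicates apart was not tested, and its part in the EE-DE/C-DE difference was not tested.

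In the comparison of the same rearing groups under clean air, EE-C/C-C, the list had a median difference of −0.18. Its median was −0.995 in C-DE against C-C and 0.57 in EE-DE against EE-C, comparisons that share arrays with EE-DE/C-DE. Of the 43 probes higher in all pairings, 17 were above 0 in EE-C/C-C, and 14 had both C-DE arrays below all other arrays, an order found for 4.68% of 30689 probes. For 8 of the 43, both EE-DE arrays lay above all other arrays, as for 4.07% of those probes. The 43 were selected with EE-DE above C-DE, which favours both orders, so nothing is read from these counts. Over 30689 probes well above background on all 8 arrays, the Pearson correlation between EE-DE/C-DE and EE-C/C-C was 0.17 across probes. These comparisons share no array, but in both of them rearing goes with the slide position.

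Of the 12 probes lower in EE-DE in all pairings, 7 were named by Ensembl transcripts. They were placed by the files on chromosomes 2 and 9 (mm9), under 5 Ensembl transcripts without gene symbol. Their letters read as the mouse major satellite, the tandem repeat of pericentromeric heterochromatin, although no repeat annotation was used. They were chosen after their values were seen and are shown because they formed the largest group among these 12. Capitals mark the longest stretch that a probe shares with another of the 7.
A_66_P124164: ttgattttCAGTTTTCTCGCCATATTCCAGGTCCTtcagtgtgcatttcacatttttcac
A_55_P2465382: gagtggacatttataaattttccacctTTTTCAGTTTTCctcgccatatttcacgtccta
A_55_P2138100: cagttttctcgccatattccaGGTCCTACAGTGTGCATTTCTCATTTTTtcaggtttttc
A_55_P2138104: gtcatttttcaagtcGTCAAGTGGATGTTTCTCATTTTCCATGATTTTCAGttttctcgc
A_55_P2165554: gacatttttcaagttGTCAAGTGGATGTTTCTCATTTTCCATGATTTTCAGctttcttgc
A_55_P2093862: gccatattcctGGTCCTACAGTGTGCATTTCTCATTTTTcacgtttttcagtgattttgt
A_55_P1978636: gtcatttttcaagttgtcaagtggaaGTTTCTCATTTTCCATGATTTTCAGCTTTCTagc
The longest shared stretch was 27 to 36 bases for 6 of the probes and 12 bases for A_55_P2465382, whose place in the group is therefore less certain. No further noncontrol probe shared 20 bases with any of the 7 on either strand. Since the repeat occurs in many copies, the coordinates do not identify the origin of the RNA, and the 7 probes are not independent.

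Decreases within the group fell into larger and smaller ones. A_55_P2465382 (chr2:98507096-98507154) read −0.65 and −0.54 in C-DE and −2.64 and −2.35 in EE-DE. This was 3.74-fold lower in EE-DE (log2 −1.90, −2.10 to −1.70). A_55_P2138104 (chr9:3004200-3004259) read 0.22 and 0.10 in C-DE and −1.83 and −1.51 in EE-DE (log2 −1.83, −2.05 to −1.61). A_55_P2165554 and A_55_P1978636, which share a long stretch with it, were lower by similar amounts, at −1.75 (−1.90 to −1.61) and −1.83 (−2.18 to −1.48).

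The other 3 probes, A_66_P124164, A_55_P2138100 and A_55_P2093862, differed by −0.96, −0.80 and −0.77. The median over the 7 was −1.75. Both C-DE arrays lay above all 6 other arrays and both EE-DE arrays below all others for each of the 7 probes, orders found for 3.91% and 4.82% of 30689 probes. The duplicates of C-DE lay at most 0.13 apart, those of EE-DE 0.65, those of C-C 0.74 and those of EE-C 0.65. The median was 1.05 in C-DE against C-C, −1.09 in EE-DE against EE-C and 0.50 in EE-C against C-C. Because the probes were chosen by their decrease, these values are a description.

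**Figure D3:**
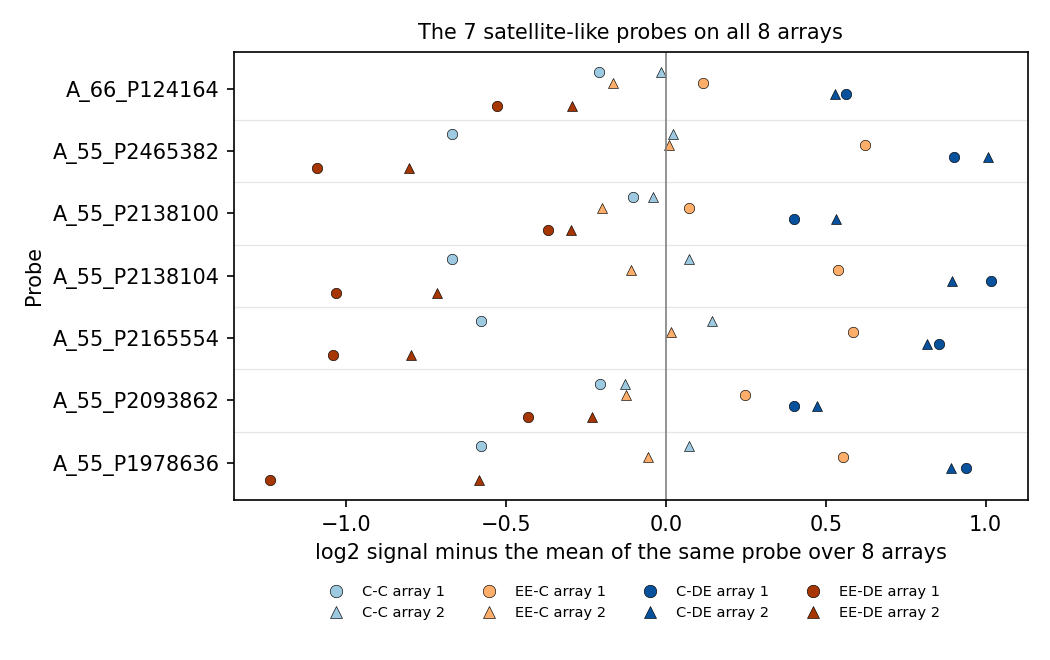
Each point is the log2 signal of 1 array minus the mean of the same probe over 8 arrays, for the 7 satellite-like probes; circles are array 1 and triangles array 2. C-DE arrays are the highest and EE-DE arrays the lowest for all 7 probes, with the clean-air arrays between.

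Probes for long intergenic noncoding RNA (lincRNA) were 5560 of the 30739 measured, and 58 of them were higher and 29 lower in EE-DE by pool means. In all pairings 2 were higher and 5 lower. Of all probes, 0.67% were higher and 0.192% lower, and 0.14% and 0.039% in all pairings. Of 1290 regions with at least 2 measured probes, 2 had several called probes, and all of those were lower in EE-DE. The region chr5:74487385-74497428 (mm9) had 14 measured probes, 3 of them called lower, and its median difference was −0.084. The difference was local, and the probes at that position are shown with the stretch that each shares with a neighbour, on the same or the opposite strand, in capitals.
A_30_P01026069: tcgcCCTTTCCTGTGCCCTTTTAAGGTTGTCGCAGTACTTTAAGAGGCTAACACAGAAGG
A_30_P01025874: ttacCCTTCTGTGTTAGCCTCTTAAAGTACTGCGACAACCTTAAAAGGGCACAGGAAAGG
A_30_P01032527: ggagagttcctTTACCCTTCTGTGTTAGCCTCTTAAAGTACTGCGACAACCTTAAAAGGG
A_30_P01031385: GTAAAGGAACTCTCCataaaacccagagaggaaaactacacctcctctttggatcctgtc
The first and last carry the strand letter F and the other two the letter R.

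A_30_P01025874 (chr5:74489547-74489606, R) read −0.20 and −0.42 in C-DE and −1.05 and −1.50 in EE-DE (log2 −0.96, −1.30 to −0.63). The overlapping probe A_30_P01032527 (R) differed by −0.82 (−1.05 to −0.60). On the opposite strand letter, A_30_P01026069 differed by −0.50 (−0.60 to −0.41) and A_30_P01031385 by −0.73 (−0.88 to −0.58). The next F probes on either side, at 60 bases from these in the tiling, differed by 0.092 and −0.015. In EE-C/C-C the 4 probes differed by −0.049 to 0.12.

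**Figure D4:**
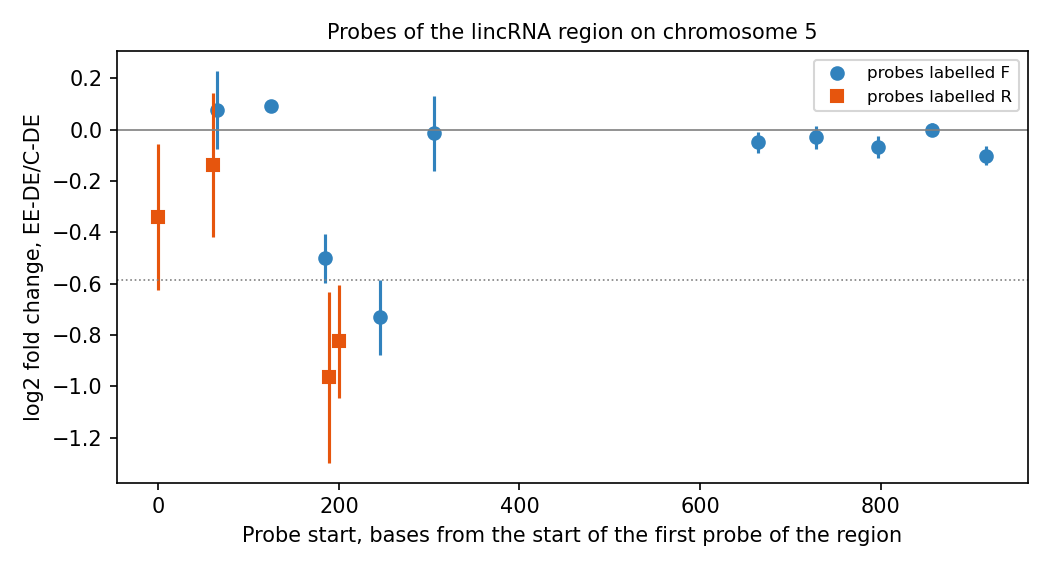
Each point is the log2 fold change in EE-DE/C-DE of 1 of 14 probes of the chromosome 5 region against the distance of its start from the first probe, with a bar for the range over 4 pairings; the dotted line marks 1.5-fold lower. The 4 probes that start 185 to 245 bases from the first lie between −0.96 and −0.50, and the other 10 between −0.34 and 0.092.

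The region chr12:72103832-72116875 had 11 measured probes, of which 4 neighbouring ones were called lower by pool means (−0.90 to −0.67) and none in all pairings. For A_30_P01021050 the C-DE arrays read −1.54 and −1.21 and the EE-DE arrays −2.86 and −1.68. EE-DE array 1 was the lower duplicate for all 4. In EE-C/C-C the same 4 probes differed by 0.27 to 0.80.

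Among genes with a symbol, 17 probes were lower by pool means and none in all pairings. Prl, the pituitary hormone prolactin, was chosen here after its values were seen. It read −2.82 and −2.59 in C-DE and −3.32 and −4.32 in EE-DE (log2 −1.12, −1.73 to −0.50), and in EE-C/C-C it differed by −1.89. The arrays did not overlap, and with normexp background correction and quantile normalization together the value was −0.53.

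All 12 mitral and tufted cell genes had a signal on the 4 arrays, with a median difference of 0.0005, and all 16 GABAergic interneuron genes, with −0.048. The medians were 0.027 for 10 dopaminergic periglomerular genes, −0.032 for 13 neuroblast genes, −0.0065 for 11 astrocyte genes, 0.022 for 17 oligodendrocyte genes, 0.064 for 16 microglia genes and −0.0096 for 14 endothelial genes. No member of these lists was called, where 0.879% of all genes were, so that few calls could occur in lists of this size. Lhx5 (0.25), the dopaminergic factor Nr4a2 (0.25) and the lysosomal marker Cd68 (0.25, and −0.11 on a second probe) were among their largest positive values, and the periglomerular list reached −0.43 (−0.57 to −0.30) with Dlk1, which differed by −0.72 in EE-C/C-C. Proliferation genes had a median of 0.074 over 12 genes, 8 of them above 0 and none called, with the cell cycle marker Mki67 at 0.32 (0.19 to 0.45) and the centromere protein gene Cenpa at −0.27 (−0.41 to −0.13).

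**Figure D5:**
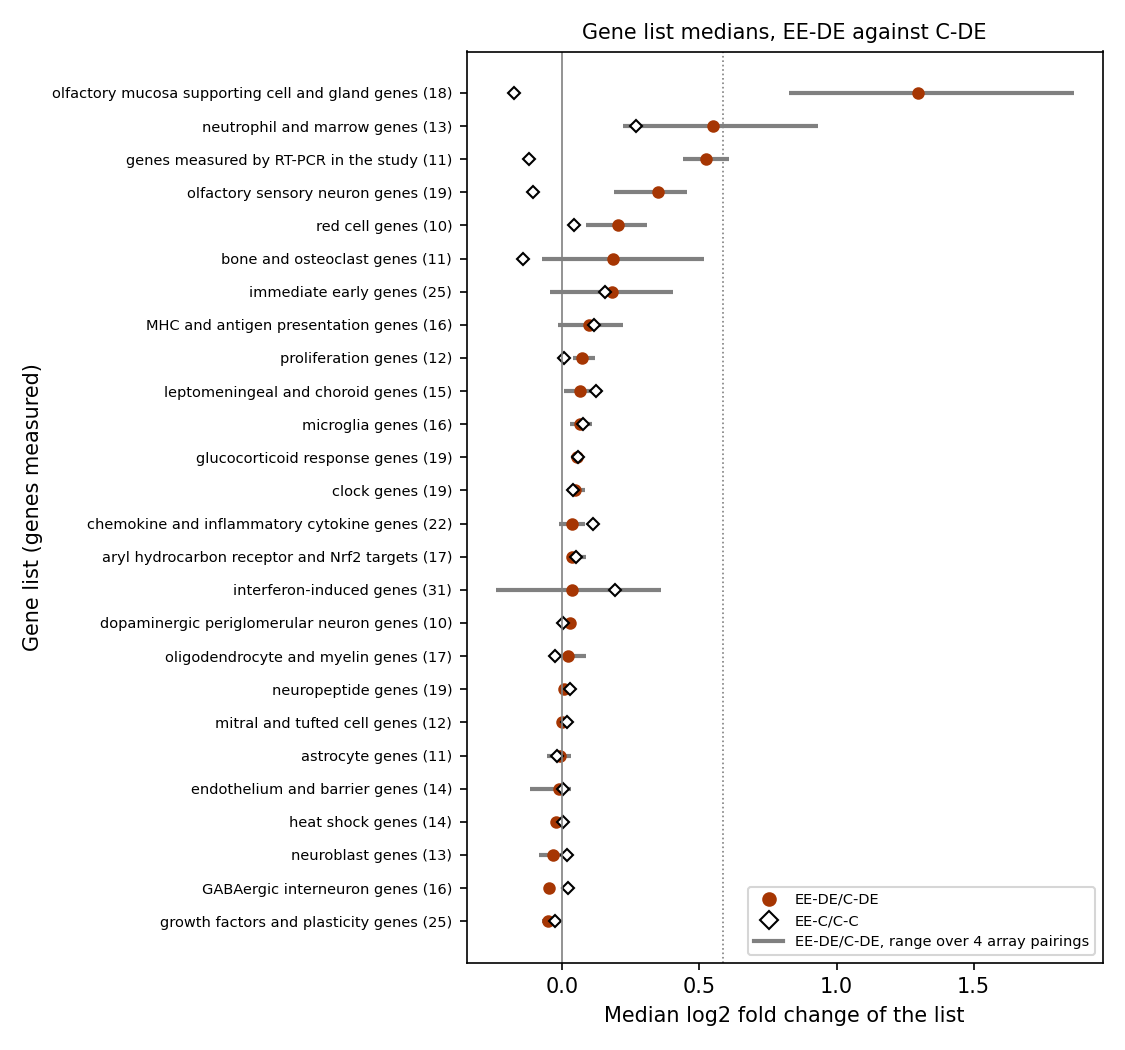
Points give the median log2 fold change of each gene list in EE-DE/C-DE, bars the lowest and highest median over the 4 pairings, and diamonds the median in EE-C/C-C; the number of genes measured is in parentheses and the dotted line marks 1.5-fold. The supporting cell and gland list, at 1.30, is the only one whose whole bar lies past 1.5-fold.

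The measured neutrophil and marrow genes all lay above 0 by pool means, against 51.2% of all genes, with the EE-DE duplicates apart. Of 16 listed genes 13 were measured, the median was 0.55 (0.22 to 0.93), and 6 were called higher, none in all pairings, where 0.7% and 0.175% of all genes were. S100a8, a calcium-binding protein of neutrophils, read −1.15 and −1.35 in C-DE and −0.042 and −0.80 in EE-DE (log2 0.83, 0.35 to 1.31). The study had reported S100a8 as changed on these arrays, so the count of this list is not independent evidence. Mpo, the granule peroxidase, was higher by 1.00 (0.38 to 1.61), Ltf, lactoferrin, by 0.91 (0.26 to 1.56) and Retnlg by 0.84 (0.48 to 1.21). EE-DE array 1 exceeded array 2 by a median of 0.63 over the list, and without array 1 the median was 0.26. In clean air the EE-C duplicates differed by 1.11. Red cell genes had a median of 0.20 (0.086 to 0.31) over 10 genes and bone genes of 0.18 (−0.075 to 0.52) over 11. Bglap, Bglap2 and Acp5 of the bone list were also among the genes that the study reported as changed on these arrays.

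The 31 interferon-induced genes measured had a median of 0.036, which ran from −0.24 to 0.36 over the pairings, 21 were above 0, and none was called, against 0.879% of all genes. Chemokine and cytokine genes had a median of 0.038 over 22 genes, 15 of them above 0, with Il1b, Il6 and Tnf below the filter, and genes of antigen presentation of 0.097 over 16, 13 of them above 0. Of all genes 51.2% were above 0. H2-Aa, an MHC class II chain, differed by 0.40 (0.09 to 0.71). Targets of the aryl hydrocarbon receptor and Nrf2, which respond to constituents of exhaust, had a median of 0.038 over 17 genes, and none was called, against the same 0.879%. Cyp1a1 did not pass the filter.

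Immediate early genes had a median of 0.18 (−0.043 to 0.40) over 25 genes, and Nr4a3, an orphan nuclear receptor, was the called one, with −5.78 and −5.42 in C-DE and −4.50 and −4.94 in EE-DE (log2 0.88, 0.48 to 1.28). With normexp background correction and quantile normalization together this value was 0.26. Atf3 differed by 0.47 (0.36 to 0.58). The clock output gene Dbp read 4.01 and 4.05 in C-DE and 4.49 and 4.62 in EE-DE (log2 0.52, 0.44 to 0.61), just below the threshold, and its second probe differed by 0.46. Gm129, a clock gene now named Ciart, differed by 0.49 (0.32 to 0.65). Arntl, the core activator expressed in opposite phase, differed by −0.24 (−0.30 to −0.19). These 3 genes differed by 0.70, 0.53 and −0.25 in EE-C/C-C, while the whole clock list had a median of 0.045 over 19 genes. Glucocorticoid response genes had a median of 0.053 over 19.

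Lists related to enrichment and neuronal signalling lay close to 0. Growth factor and plasticity genes had a median of −0.051 over 25 genes, with Vgf, a neurotrophin-inducible peptide precursor, at −0.18 (−0.25 to −0.10). Neuropeptide genes had a median of 0.0081 over 19 and heat shock genes of −0.021 over 14. Leptomeningeal and choroid genes had 0.066 over 15. Oxt, the oxytocin precursor, differed by 0.19 (0.16 to 0.22), and by −1.26 in EE-C/C-C.

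The 11 genes measured by quantitative RT-PCR in the study had been selected on these arrays and are therefore no independent sample. Of the 11, Cyp2f2, Umodl1, Krt18, Mslnl and Aqp3 were higher in all pairings. For each of these, the paper reported a significant difference between C-DE and EE-DE by RT-PCR of single animals (Tukey-Kramer). Those RT-PCR values were not analysed here. Dbp is given above. The interferon-induced chemokine Cxcl10 read −1.53 and −0.84 in C-DE and −1.08 and −1.59 in EE-DE (log2 −0.15, −0.76 to 0.46), so the arrays overlapped. Nr1i3, a xenobiotic-sensing receptor, differed by −0.14 (−0.55 to 0.28), Chmp4b by −0.076 on its brightest probe and by −0.12 and −0.58 on the others, Fam13c by 0.045 and Sdad1 by −0.016.

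Some large pool differences rested on 1 array. Kdm5d, a histone demethylase of the Y chromosome, read −4.30 and −4.93 in C-DE and 0.28 and −4.69 in EE-DE (log2 2.41, −0.39 to 5.21), and without EE-DE array 1 the difference was −0.076. The other measured Y-linked genes, Ddx3y, Uty and Eif2s3y, differed by 0.099, 0.055 and −0.050 on their brightest probes, and a second Uty probe by −0.20. Probes well above background in 1 pool only numbered 2 for EE-DE and 633 for C-DE, and EE-DE array 1 had the higher background. For such probes the fold is a bound, computed against the lowest signal well above background on each array or the dim probe's own value if higher. This bound reached 1.5-fold for 2 probes in EE-DE and for 8 in C-DE. Gadl1 was at least 3.00-fold higher in EE-DE on such a probe, whose EE-DE arrays read −3.76 and −5.34, and 1.71-fold higher on a measured probe (log2 0.78, 0.42 to 1.13). In C-DE, Zbbx was at least 3.57-fold, Olfr796 at least 2.55-fold and Olfr1388 at least 1.59-fold higher, with unequal C-DE arrays, as for Zbbx at −4.77 and −2.24.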

How the data were processed

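Total RNA of olfactory bulbs, pooled by group, was labelled with Cy3 and hybridized to one-colour Agilent arrays (8 arrays, 4 compared here). Scanner files deposited by the authors hold intensity per spot from Agilent Feature Extraction 10.7.3.1, background-subtracted and before any scaling between arrays. A series table, also deposited by the authors, holds log2 values that follow the log2 signal minus the 75th percentile, centred per probe (within 0.02 for 99.7% of 30739 probes), and served as an alternative. Their exact centring is inferred.

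The processed signal of each array was put on the log2 scale and its 75th percentile, taken over noncontrol spots, was subtracted. Spots well above background on all 4 arrays and without outlier flags were kept, spots of a probe were averaged, and arrays of a pool were averaged. A gene with several probes is represented by its brightest. With 1 pool per group no test was made. The number of arrays and the signal over background limit the precision. Groups came from the labels. Calling was tested on simulated data. Python 3.11.15, numpy 2.4.6, pandas 2.3.3, matplotlib 3.10.9, R 4.3.3 and limma 3.58.1 were used.

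Genes were named by rule: those with a symbol called in all 4 pairings, at most 10 per direction by size, up to 3 per direction measured in 1 pool only, the RT-PCR genes and Gapdh, and of each of 27 lists up to 4 members with the largest change and those called. The members and lists were chosen with earlier results of these data known. Genes said to be named or chosen after their values were seen, and some further list members, were added outside this rule. Names are those of the files. For 19451 of the 30739 probes the accession was found in a RefSeq table (GRCm38.p6), whose symbol was the same for 17472. Coordinates are mm9, as in the files. Alternatives were other normalizations, filters, thresholds, averages and leaving out each array.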

Additional observations from a re-analysis of the deposited data

Results flagged for a closer look

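Of 163 probes examined one by one that were well above background on all 8 arrays, 13 ran in opposite directions in EE-DE/C-DE and in EE-C/C-C, in every pairing of arrays. Over all 30689 such probes 3.82% (1172) did, and many of the 163 were chosen for large changes, so the count itself is not a result. The difference between the comparisons was not tested for any of them, the pools are single, and in both comparisons rearing goes with the slide position.

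In the lincRNA region on chromosome 12, A_30_P01021050 was lower in EE-DE (log2 −0.90, −1.65 to −0.14) and higher in EE-C than in C-C (0.80, 0.19 to 1.40). The neighbouring A_30_P01021915, A_30_P01027865 and A_30_P01027757 were also lower in EE-DE (−0.68, −0.67 and −0.67) and differed by 0.67, 0.27 and 0.40 in EE-C/C-C. Probes A_30_P01030531, A_30_P01023803 and A_30_P01019799 of the same region ran the other way, at 0.23, 0.22 and 0.36 in EE-DE/C-DE and at −0.70, −0.030 and −0.39 in EE-C/C-C. In the chromosome 5 region, A_30_P01031327 differed by −0.067 and 0.096.

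The satellite-like probe A_55_P2093862 was lower in EE-DE (−0.77) and higher in EE-C than in C-C (0.23, 0.0055 to 0.45). Kirrel2, an adhesion protein of sensory axons, differed by 0.80 in EE-DE/C-DE and by −0.55 (−1.04 to −0.054) in EE-C/C-C. Oxt, the oxytocin precursor, differed by 0.19 and −1.26 (−1.84 to −0.67). For Rrm2, a ribonucleotide reductase subunit of dividing cells, the values were 0.17 and −0.083, and for Chmp4b −0.076 and 0.052.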

How the results depend on the processing

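The counts of calls depended on the treatment of dim probes. With normexp background correction and quantile normalization, 84 probes were called (65 higher, 19 lower), and 25 in all pairings (17 higher). With the looser filter 1730 were called (976 higher, 754 lower), and 279 in all pairings (200 higher, 79 lower). Without a filter 12892 were called (10986 higher, 1906 lower), and 1436 in all pairings (1227 higher, 209 lower). With the filter over all 8 arrays and accessions only, 140 were called (123 higher, 17 lower), and 0 were lower in all pairings, since the satellite-like and lincRNA probes have no such accession. With the brighter 75% of probes 71 were called (50 higher, 21 lower), and 32 in all pairings (23 higher). At 2-fold 94 were called (82 higher, 12 lower). Leaving out each array in turn gave 252 to 527 called, 186 to 318 higher and 66 to 209 lower. Filters and thresholds change the number of probes by construction. The normexp setting adds an offset of 50 to the signal, which by construction makes fold changes of dim probes smaller. How much of the change in counts came from this was not tested, and for single arrays the cause was not tested.

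The median of the supporting cell and gland list was 0.96 with normexp and quantile normalization, its lowest value, and ranged from 1.07 to 1.65 when an array was left out, of the sensory neuron list from 0.21 to 0.37, of neutrophil genes from 0.26 to 0.87, of immediate early genes from 0.0033 to 0.32 and of interferon-induced genes from −0.11 to 0.21. For 39 called named probes, 523 of 524 values under the alternatives kept their direction and 503 also stayed past 1.5-fold. Kdm5d ranged from −0.076 without EE-DE array 1, where it reversed, to 4.90 without EE-DE array 2. For the 7 satellite-like probes, whose alternatives were added after seeing the data, all 91 values were at least 1.5-fold lower (−2.15 to −0.67). Leaving out an array could not undo a call made in all pairings. Those values were therefore fixed in advance for the 7, and for such probes among the 39. No paired analysis was possible because no test was made and the array numbers only name duplicates of 1 pool.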
